A study of Mus musculus with 6 samples.

Results

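Hox genes encode transcription factors that carry a homeodomain and lie in clusters on several chromosomes. The members described here are Hoxa5, Hoxa7, Hoxa9 and Hoxa10 of the HoxA cluster, Hoxb3, Hoxb4 and Hoxb5 of the HoxB cluster, and Meis1, which encodes a cofactor of Hox proteins. These 8 genes were taken by symbol from the 24421 genes of the table. They were chosen as HoxA and HoxB genes of blood stem cells with a cofactor, not by their values. Earlier results of these data were known when they were chosen. No Pbx gene is among them, although Pbx proteins are the other main partners of Hox proteins.

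Hox proteins bind DNA weakly alone and more selectively together with proteins of the TALE homeodomain class, which include the Meis and Pbx families. In mouse marrow, genes of the HoxA and HoxB clusters are active in stem cells and early progenitors and are shut down as blood cells mature. The histone methyltransferase encoded by Kmt2a keeps Hox genes active, and Polycomb proteins hold them silent. Hoxa9 with Meis1 maintains early progenitors and drives leukaemia in mice when kept on, and extra Hoxb4 expands mouse stem cells in culture.

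RNA came from lineage-depleted femoral bone marrow of Dek -/- mice of the C57BL/6 strain, so every library lacks an intact Dek gene by its label. There were 3 libraries treated with exogenous DEK, the chromatin protein that Dek encodes, and 3 treated with vehicle. The libraries of each group are numbered 1 to 3. The title of the series poses the question of what exogenous DEK changes in the transcripts of these cells. The labels give no dose, time, age or sex, nor whether a replicate is its own animal, so p-values measure the spread between these libraries, which may be technical. Lineage depletion on columns enriches for progenitors but leaves a mixture of cells.

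Each library held 34875736 to 49128378 counts in genes. Dek itself had 712 to 869 counts in the 6 libraries, and a count over the whole gene cannot check which part was deleted. Both libraries numbered 3 stood apart. As a share of the library total scaled with TMM factors, neutrophil markers (11 genes in the table) took 6.40% in DEK replicate 3. They took 0.616 to 0.814% in DEK replicates 1 and 2, against 6.71% in vehicle replicate 3 and 0.642 to 0.696% in vehicle replicates 1 and 2. Stem and progenitor markers (20 genes, led by Kit, Lmo2 and Cd34) summed to 1105 to 1316 CPM (counts scaled to a common library total with TMM factors) in the DEK libraries and to 898.7 to 1392 CPM in the vehicle libraries. Progenitor and neutrophil transcripts were thus both present in every library. Rn45s, a gene of ribosomal RNA precursor, took 4.89% of unscaled counts in vehicle replicate 1 and 0.159 to 0.331% in the other libraries.

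Per length of exon, Meis1 was the most abundant member and Hoxb5 the least. Levels in RPKM (CPM per kilobase of exon) averaged 4.09 ± 0.898 in the DEK libraries and 4.80 ± 0.797 in the vehicle libraries for Meis1 (SD, n = 3 each). Hoxb4 followed at 2.65 ± 0.563 RPKM with DEK and 2.50 ± 0.789 RPKM with vehicle. Hoxa9 stood at 1.61 ± 0.163 RPKM with DEK and 1.57 ± 0.300 RPKM with vehicle, and Hoxa7 at 1.34 ± 0.168 RPKM with DEK and 1.33 ± 0.425 RPKM with vehicle. The remaining members averaged over all 6 libraries 0.761 RPKM for Hoxb3, 0.424 RPKM for Hoxa5, 0.255 RPKM for Hoxa10 and 0.0960 RPKM for Hoxb5. Between neighbours in this order, the ranges over 6 libraries were separate only for Hoxb4 over Hoxa9 (2.04 to 3.41 against 1.24 to 1.82 RPKM) and for Hoxa10 over Hoxb5 (0.191 to 0.400 against 0.0471 to 0.172 RPKM). The other neighbours had overlapping ranges, although Hoxa9 exceeded Hoxa7, and Hoxb3 exceeded Hoxa5, in 6 of 6 libraries.

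**Figure D1:**
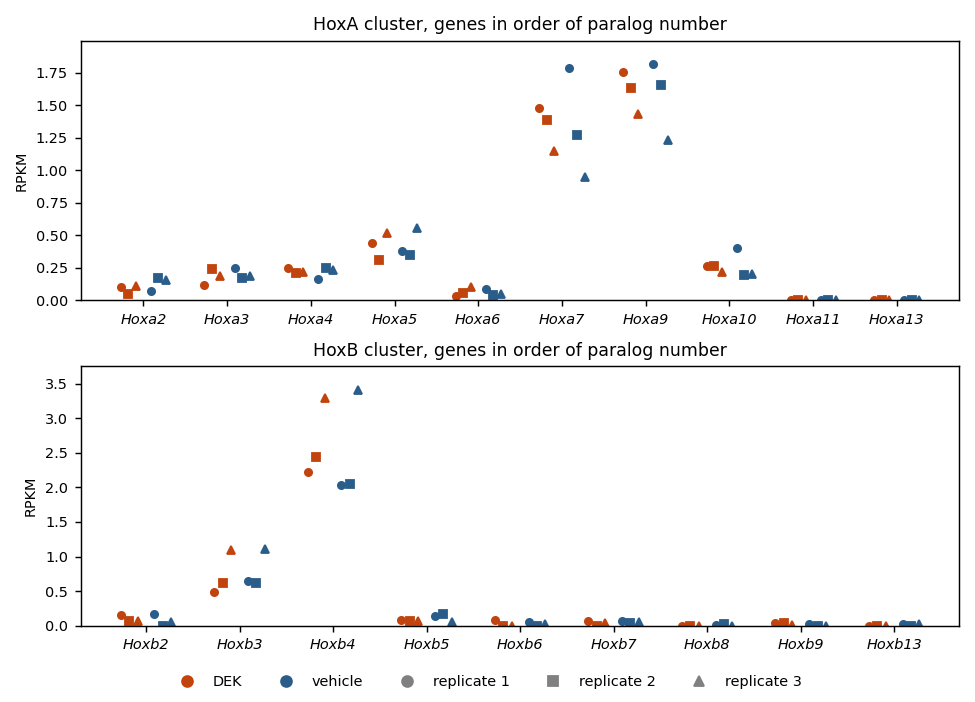
RPKM of genes of the HoxA (top) and HoxB (bottom) clusters, from paralog number 2 on, in 3 DEK and 3 vehicle libraries (1 point each, shape by replicate number). Levels peak at Hoxa7 and Hoxa9 in the HoxA cluster and at Hoxb4 in the HoxB cluster, and lie at 0 for Hoxa11 and Hoxa13 and near 0 from Hoxb6 to Hoxb13.

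Within each cluster a few genes carried most of the counts. In the HoxA cluster on chromosome 6, Hoxa7 (52215624 to 52218573) and Hoxa9 (52223097 to 52227370, both minus strand, mm10) were the most abundant, and Hoxa11 and Hoxa13 had 0 counts in all 6 libraries. A count of 0 allows up to 3 counts in a library, or 0.0591 to 0.0893 CPM. In the HoxB cluster on chromosome 11, Hoxb4 (96318267 to 96321638, plus strand) and its neighbour Hoxb3 (96323126 to 96347930, plus strand) were the most abundant. Hoxa5 (52201754 to 52204587), Hoxa10 (52231197 to 52240854), Hoxb5 (96303512 to 96306121) and Meis1 (chromosome 11, 18880428 to 19018969, minus strand) complete the members. No exon base of any member overlaps an exon of another gene in the table, although counting without strand would add reads of an unannotated transcript on the opposite strand.

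RefSeq promoters (build GRCm38.p6, the sequence of mm10), each running from 250 bases before to 50 after a start site, were matched for 6 of the 8 members. The start sites of these entries coincide with the outer exon bounds of the table, and Hoxa10 has another start 5915 bases inside that bound. Promoters of Hoxa9, Hoxa5, Hoxb4 and Meis1 are shown because these genes differ in level and in their behaviour across libraries, and because the Kmt2a protein carries a domain that binds CG pairs free of methylation. Capitals mark CG pairs.
Hoxa9 (chr6:52227321-52227620, minus strand): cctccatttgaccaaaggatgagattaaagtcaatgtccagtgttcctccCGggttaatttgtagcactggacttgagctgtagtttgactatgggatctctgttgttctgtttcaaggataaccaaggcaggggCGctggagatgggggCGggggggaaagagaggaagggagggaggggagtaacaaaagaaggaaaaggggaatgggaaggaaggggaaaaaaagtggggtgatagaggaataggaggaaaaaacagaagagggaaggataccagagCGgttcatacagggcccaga
Hoxa5 (chr6:52204538-52204837, minus strand): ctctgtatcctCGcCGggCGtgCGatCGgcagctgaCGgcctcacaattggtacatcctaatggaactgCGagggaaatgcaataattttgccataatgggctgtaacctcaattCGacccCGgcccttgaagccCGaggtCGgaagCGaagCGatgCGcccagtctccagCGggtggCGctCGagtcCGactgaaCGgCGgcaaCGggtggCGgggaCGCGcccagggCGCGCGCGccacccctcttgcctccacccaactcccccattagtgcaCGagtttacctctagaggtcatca
Hoxb4 (chr11:96318017-96318316, plus strand): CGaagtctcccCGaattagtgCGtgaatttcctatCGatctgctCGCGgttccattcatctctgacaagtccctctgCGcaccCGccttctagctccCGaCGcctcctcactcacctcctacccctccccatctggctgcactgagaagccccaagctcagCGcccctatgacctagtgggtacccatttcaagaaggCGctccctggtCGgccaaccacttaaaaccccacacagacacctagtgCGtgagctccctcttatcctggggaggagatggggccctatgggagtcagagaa
Meis1 (chr11:19018920-19019219, minus strand): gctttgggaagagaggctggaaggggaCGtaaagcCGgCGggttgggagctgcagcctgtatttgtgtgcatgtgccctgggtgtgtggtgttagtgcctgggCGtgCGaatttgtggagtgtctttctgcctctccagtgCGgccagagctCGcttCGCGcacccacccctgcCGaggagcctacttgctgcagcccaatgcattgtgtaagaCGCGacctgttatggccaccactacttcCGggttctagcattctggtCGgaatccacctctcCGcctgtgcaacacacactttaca
The Hoxa9 promoter has 4 CG pairs and that of Hoxa5 has 29. The Hoxb4 promoter has 14 and that of Meis1 has 15, with a median of 7 over all 32851 promoters of this length in the table. Of the promoters shown, that of Hoxa9 had the fewest CG pairs and that of Hoxa5 the most, and Hoxa9 stood above Hoxa5 in level. Meis1 and Hoxb4 had more CG pairs than Hoxa9 and also stood above Hoxa9 in level. A link between CG pairs and level was not tested. Both strands were searched for the MEIS motif TGACAG (in 19.2% of all promoters), the PBX-HOX motif TGATTNAT (3.22%), the CCAAT box CCAAT (37.4%) and the E-box CACGTG (7.15%). A CCAAT box was found in the promoters of Hoxa5 and Meis1 and at the inner start of Hoxa10, with 1 match each and no overlap with another motif. No match to the other motifs was found in the windows of these members.

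No member differed between DEK and vehicle beyond the spread between libraries. Of the 8 members, 7 passed the filter on low counts, and 0 of these 7 passed the test (edgeR's quasi-likelihood test with no block, adjusted p = 1 for each). Their median log2 fold change, DEK minus vehicle, was -0.017, against a median of 0.0018 over all 13803 genes tested. In this fit 0% of all genes were called, and 360 genes (2.61%) and 0 members had an unadjusted p under 0.05. DESeq2 called 58 of all genes (0.42%) and limma-voom 0, and both called 0 members, none of which had an unadjusted p under 0.05 by either. In a fit with the replicate number as a block, 177 of all genes (1.28%) and again 0 of the 7 members were called. Without both libraries numbered 2 that fit called 0 genes. The groups overlapped for all 8 members, against 7.19% of all genes with separate groups. Without both libraries numbered 3 and without the block, 168 genes (1.22%) and 0 members were called. With shares of all genes this small, 0 calls among 7 members says little about the members.

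**Figure D2:**
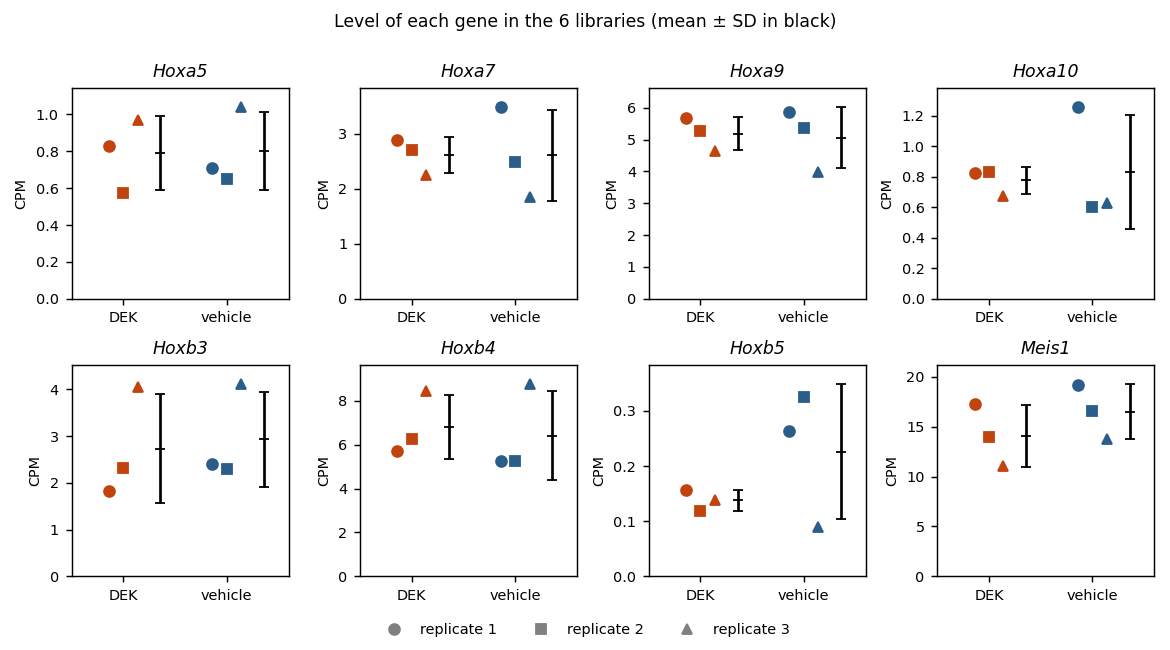
CPM of each of the 8 genes in 3 DEK and 3 vehicle libraries (point shape by replicate number), with mean ± SD over 3 libraries in black beside each group. The groups overlap in every panel, and triangles (replicate 3) lie low for Hoxa7, Hoxa9 and Meis1 and high for Hoxa5, Hoxb3 and Hoxb4 in both groups.

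Hoxa9, a factor of early myeloid and lymphoid progenitors, stood at 5.67, 5.26 and 4.63 CPM in DEK replicates 1, 2 and 3, against 5.86, 5.35 and 3.99 CPM in vehicle replicates 1, 2 and 3. Replicate 3 was the lowest library of both groups, and the DEK libraries lay within the range of the vehicle libraries. The log2 fold change was 0.03 ± 0.22 (SE), with a 95% interval of -0.50 to 0.57. Hoxa7, its neighbour in the cluster, had 2.88, 2.70 and 2.25 CPM in the DEK libraries and 3.49, 2.48 and 1.85 CPM in the vehicle libraries. Replicate 3 was again lowest and replicate 1 highest in each group, and the vehicle libraries spread more widely. Its log2 fold change was 0.00051 ± 0.31 (SE; interval -0.74 to 0.75).

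Hoxa10, which is known for a role in myeloid progenitors, was scarce, with 37, 42 and 29 counts in the DEK libraries and 62, 24 and 21 counts in the vehicle libraries. The highest and lowest values were both in the vehicle group, the highest in vehicle replicate 1, the library richest in Rn45s. In CPM this was 0.826, 0.828 and 0.671 with DEK and 1.26, 0.600 and 0.625 with vehicle (log2 fold change -0.10 ± 0.41, SE). Hoxa5, which is active in myeloid and erythroid progenitors, had 37, 29 and 42 counts with DEK and 35, 26 and 35 counts with vehicle. Its level was 0.826, 0.572 and 0.972 CPM in the DEK libraries and 0.710, 0.650 and 1.04 CPM in the vehicle libraries, with replicate 3 highest in both groups. The log2 fold change of Hoxa5 was -0.02 ± 0.38 (SE), and its 95% interval ran from -0.93 to 0.89.

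Hoxb4 stood at 5.72, 6.27 and 8.45 CPM in DEK replicates 1, 2 and 3, against 5.23, 5.25 and 8.75 CPM in vehicle replicates 1, 2 and 3. Replicate 3 was the highest library in both groups. The group means of 6.81 ± 1.44 CPM with DEK and 6.41 ± 2.03 CPM with vehicle (SD, n = 3 each) differed by less than either SD. The log2 fold change was 0.09 ± 0.28 (SE; interval -0.59 to 0.76). Hoxb3, which is close to Hoxb4 in the cluster and also active in stem cells, had 1.83, 2.31 and 4.05 CPM with DEK and 2.39, 2.30 and 4.11 CPM with vehicle. Replicate 3 was again highest in both groups. Its fold change between the groups was small beside its error, at -0.10 ± 0.40 (log2, SE; interval -1.07 to 0.86). Hoxb5, which marks long-term stem cells of mouse marrow, had only 7, 6 and 6 counts with DEK and 13, 13 and 3 counts with vehicle. It did not pass the filter on low counts and has no value in the main test. A 95% exact Poisson interval, which covers counting error only, spans 0.0434 to 0.257 CPM for the 6 counts of DEK replicate 2 and 0.0184 to 0.261 CPM for the 3 counts of vehicle replicate 3.

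Meis1 was the only member with the same direction in all 3 comparisons of equally numbered libraries. It stood at 17.3, 13.9 and 11.1 CPM in DEK replicates 1, 2 and 3, against 19.2, 16.6 and 13.7 CPM in vehicle replicates 1, 2 and 3. Each DEK library was lower than the vehicle library of its number, by log2 differences of -0.15, -0.25 and -0.31, while the groups overlapped. The log2 fold change of -0.23 ± 0.21 (SE) had an interval of -0.74 to 0.29 and did not pass. Without both libraries numbered 3 and without the block it was -0.20 ± 0.16 (SE; adjusted p = 0.72, edgeR). Of all genes tested, 34.2% had 1 direction in all 3 such comparisons and 17.9% were lower in all 3.

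**Figure D3:**
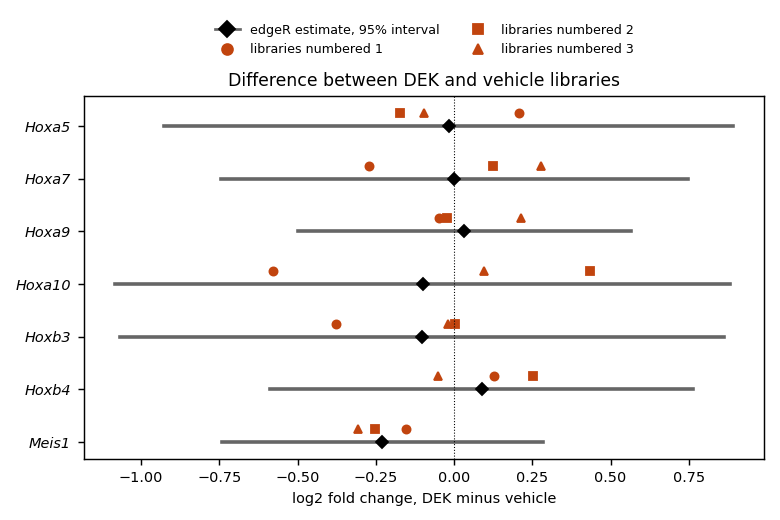
Log2 fold change, DEK minus vehicle, of the 7 genes that passed the filter: the edgeR estimate with no block (diamond) with its 95% interval (line), and the log2 CPM difference between libraries of equal number (orange). Every interval includes 0, and the 3 differences of Meis1 are all negative, at -0.15, -0.25 and -0.31.

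Several members did differ between libraries of the same group, and they split into opposite directions. Hoxa7, Hoxa9, Hoxa10 and Meis1 were lower in replicate 3 than in the mean of replicates 1 and 2, in both groups. For Hoxa10 with vehicle this came from the high replicate 1, since replicate 3 (0.625 CPM) was not below replicate 2 (0.600 CPM). On the log2 scale the difference for Hoxa9 was -0.24 in the DEK libraries and -0.49 in the vehicle libraries, and for Meis1 it was -0.48 with DEK and -0.38 with vehicle. Hoxb3, Hoxb4 and Hoxa5 were higher in replicate 3 of both groups, by 0.96 with DEK and 0.80 with vehicle for Hoxb3, by 0.49 with DEK and 0.73 with vehicle for Hoxb4, and by 0.47 with DEK and 0.58 with vehicle for Hoxa5. Counts of Hoxa5 and Hoxa10 were low. For Hoxa5 the Poisson interval of replicate 3 overlapped those of replicates 1 and 2 in both groups. The same held for Hoxa7, Hoxa9 and Hoxa10 in the DEK libraries. With vehicle, the replicate 3 intervals of Hoxa7, Hoxa9 and Hoxa10 overlapped those of replicate 2 but not those of replicate 1. For Meis1, Hoxb3 and Hoxb4 the interval of replicate 3 was separate from those of replicates 1 and 2 in both groups. Among all genes tested, 41.4% were lower and 38.5% higher in replicate 3 of both groups, so such a shift was common. The labels attach no condition to replicate 3, and these differences are a description with no test. The directions of these 7 genes held with plain library totals, DESeq2 size factors and upper quartile scaling, where Hoxb4 in the DEK libraries ranged from 0.28 to 0.51.

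The split can be seen without any scaling in the ratio of Hoxb4 counts to Hoxa9 counts. This ratio was 1.01, 1.19 and 1.82 in DEK replicates 1, 2 and 3, against 0.893, 0.981 and 2.19 in vehicle replicates 1, 2 and 3. It was highest in replicate 3 of each group. The ratio of Hoxa7 to Hoxa9 counts stayed between 0.463 and 0.595 in all 6 libraries. Root mean square differences between centred log2 CPM profiles gave the same grouping over the 5 members with a mean of at least 1 CPM. Ratios and distances come from the same counts as the split, so they restate it and add no separate support. Hoxa7 was nearest to Hoxa9 (0.121) and Hoxb3 nearest to Hoxb4 (0.207), Meis1 was nearest to Hoxa9 (0.179), and the widest distance was that of Hoxa7 from Hoxb3 (0.672).

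**Figure D4:**
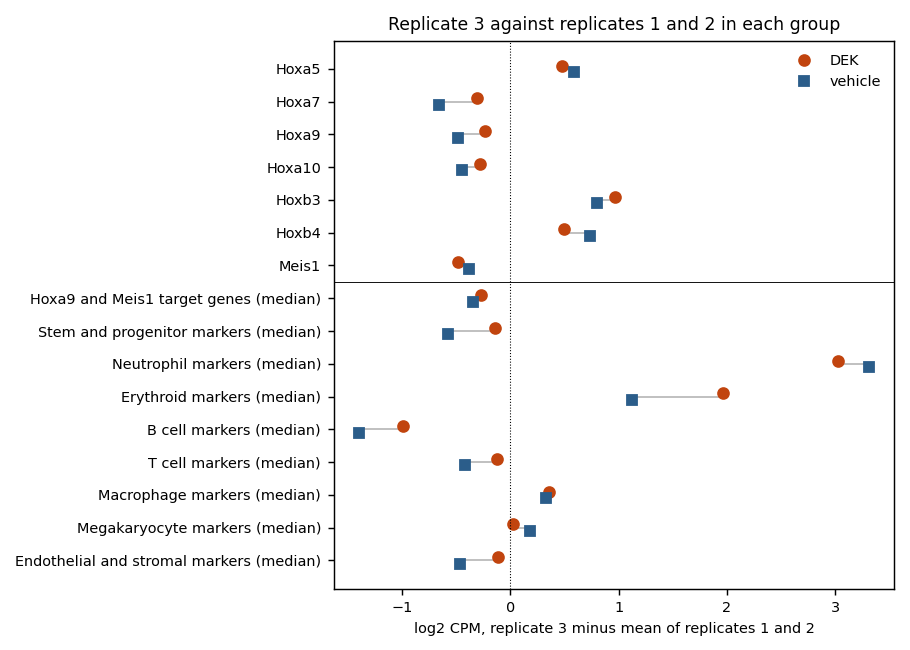
Log2 CPM of replicate 3 minus the mean of replicates 1 and 2 in the DEK (circle) and vehicle (square) libraries, for the 7 genes that passed the filter (above the line) and as medians of marker lists (below it). Hoxa7, Hoxa9, Hoxa10 and Meis1 lie left of 0 with the stem, progenitor and B cell markers, and Hoxa5, Hoxb3 and Hoxb4 lie right of 0, as do the neutrophil and erythroid markers.

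Marker lists of other cells moved with these shifts, and their part in them was not tested. In bulk libraries, fewer cells of a type and less RNA per cell cannot be told apart. The median of the 20 stem and progenitor markers differed in replicate 3 by -0.15 with DEK and -0.58 with vehicle, and 10 of the 20 were lower in both groups. The median of the 9 B cell markers differed by -0.99 with DEK and -1.40 with vehicle, with 9 of 9 lower in both groups. All 11 neutrophil markers were higher in both groups, with medians of 3.03 with DEK and 3.31 with vehicle. Of the 6 erythroid markers tested, 5 were higher in both groups (medians 1.96 with DEK and 1.12 with vehicle). Hba-a1, Hbb-bs and Hbb-bt are listed at 0 in every library. They share 1112, 630 and 630 exon bases with another globin entry and have 6, 9 and 0 of their own. Since reads were counted with no overlap option, these zeros do not give the level of the genes. The medians of the T cell markers were -0.13 with DEK and -0.42 with vehicle, those of the macrophage markers 0.36 with DEK and 0.33 with vehicle, and those of the megakaryocyte markers 0.023 with DEK and 0.18 with vehicle. The 7 endothelial and stromal markers tested had medians of -0.12 with DEK and -0.47 with vehicle. Their list summed to only 32.6 to 45.1 CPM with DEK and 30.3 to 47.0 CPM with vehicle, and none of its 10 genes was at 0 in all libraries.

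Hoxa9 varied little in proportion to the stem and progenitor markers. Per 1000 counts of those 20 genes it had 4.31, 4.59 and 4.19 counts in DEK replicates 1, 2 and 3, against 4.21, 4.05 and 4.44 counts in vehicle replicates 1, 2 and 3. The libraries numbered 3 no longer stood apart on this base. The coefficient of variation over 6 libraries was 4.44% on this base and 13.6% in CPM, where the mean count alone gives a counting error of 6.65%. For Hoxa7 it was 10.6% on this base and 21.6% in CPM. Hoxb4 diverged instead, with 4.34, 5.46 and 7.64 counts per 1000 in the DEK libraries and 3.76, 3.98 and 9.74 in the vehicle libraries, a coefficient of variation of 41.1% on this base and a lower one in CPM. Meis1 had 13.1, 12.1 and 10.03 counts per 1000 with DEK and 13.8, 12.6 and 15.3 with vehicle, so each DEK library was again below the vehicle library of its number. The base itself is uneven, since Kit, Lmo2 and Cd34 made up 19.7%, 16.4% and 15.1% of its counts, and Lmo2 was not lower in replicate 3 (0.40 with DEK and 0.09 with vehicle). Ly6a gave 7353 of the 47759 marker counts in DEK replicate 3 and 1403 of the 30190 in vehicle replicate 3. These proportions were singled out after their values were seen.

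**Figure D5:**
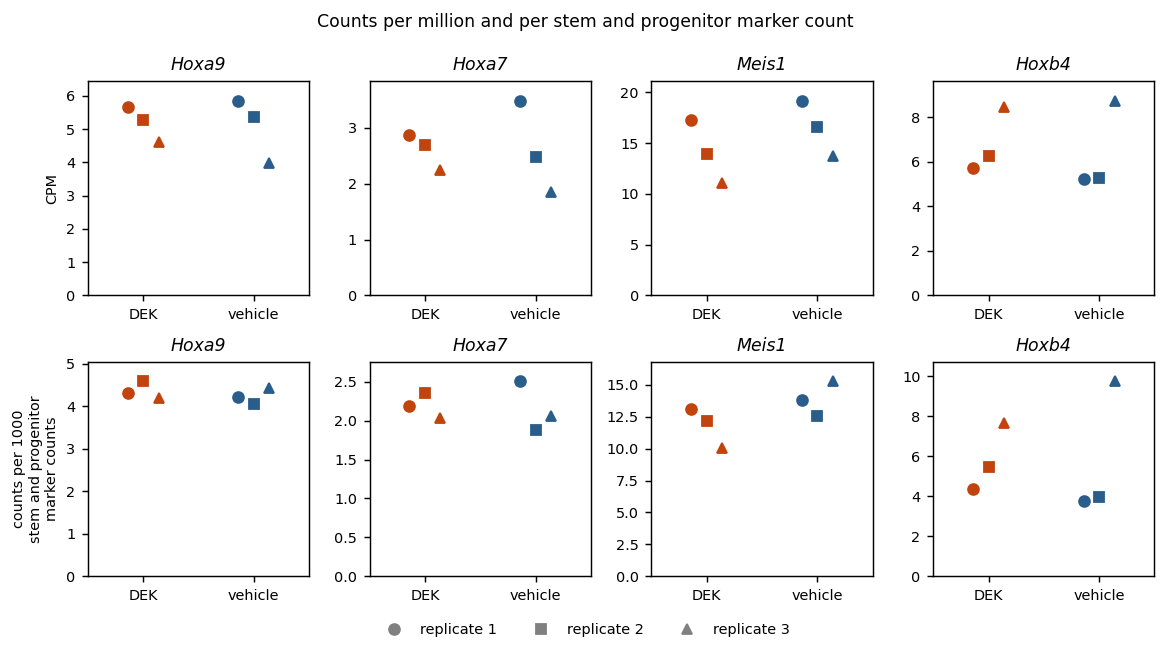
Hoxa9, Hoxa7, Meis1 and Hoxb4 in CPM (top) and in counts per 1000 counts of 20 stem and progenitor markers (bottom), in 3 DEK and 3 vehicle libraries with point shape by replicate number. Hoxa9 lies between 4.05 and 4.59 in all libraries of the lower row, while Hoxb4 reaches 7.64 and 9.74 in the libraries numbered 3.

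Among the other genes of the HoxA and HoxB clusters, 3 of 14 passed the filter on low counts and 0 of these passed the test. That test called 0% of all genes. Hoxa3 had a log2 fold change of -0.17 ± 0.43 and shares exon bases with Hoxaas2 and Hoxaas3 on the opposite strand. The HoxC and HoxD clusters were close to silent: 15 of their 18 genes had 0 counts in all libraries and none passed the filter. Of the noncoding genes of the Hox clusters, 2 of 11 passed the filter and 0 the test. Mira, a noncoding gene next to Hoxa7 (52214492 to 52215288), stood at 4.20 ± 1.18 RPKM with DEK and 4.54 ± 0.609 RPKM with vehicle (SD, n = 3 each), above Hoxa7 itself, and it was also lower in replicate 3 of both groups (-0.53 with DEK and -0.34 with vehicle). Hotairm1, another noncoding gene of the HoxA cluster, had a log2 fold change of 0.02 ± 0.44.

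Of the other TALE genes, 9 of 10 passed the filter and 0 the test, which called 0% of all genes. Per length, Pbx2 (28.1 ± 10.7 RPKM with DEK and 29.4 ± 11.8 RPKM with vehicle; SD, n = 3 each) exceeded every Hox gene and Meis1 in mean level. Pbx4, the gene of this list with the smallest p in the blocked fit, had a log2 fold change of -0.38 ± 0.30, and Tgif2, which shares exon bases with another gene, one of 0.24 ± 0.28. Pbx2 was higher in replicate 3 by 0.88 with DEK and 0.92 with vehicle on the log2 scale, where Meis1 was lower.

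Regulators and targets of Hox genes gave no call either, in a fit that called 0% of all genes. Of 14 genes of the Kmt2a complex and its elongation partners, 0 passed, with a median log2 fold change of 0.00099. The smallest p in the blocked fit in that list were those of Hcfc1 at 0.22 ± 0.16 and Dot1l, a histone methyltransferase, at 0.29 ± 0.21. Of 16 Polycomb genes 0 passed and 11 lay below 0, among them Bmi1, which sustains stem cells, at -0.33 ± 0.22 and Rnf2 at -0.24 ± 0.24. Of 15 targets of Hoxa9 and Meis1 0 passed and 10 lay below 0. Over all 13803 genes tested, 6835 lay below 0, and no list was tested as a set. Ccnd3, a cyclin gene that shares exon bases with Bysl, had a log2 fold change of 0.28 ± 0.16 and Pim1, a kinase gene, one of 0.65 ± 0.56. Of these 15 targets, 10 were lower in replicate 3 of both groups, as Hoxa9 was. The list holds Cd34, Flt3, Lmo2 and Erg, which also stand in the stem and progenitor list.

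The stem and progenitor markers had 0 of 20 called, in a fit that called 0% of all genes. Of the 20, 16 lay below 0 (6835 of 13803 over all genes tested), with a median log2 fold change of -0.12. Hlf, a transcription factor gene of stem cells, stood at -0.59 ± 0.39 and Myct1 at -0.43 ± 0.32. The groups were separate for 2 of the 20, a count not far from the share of 7.19% over all genes tested. Both were higher with DEK and were named after their values were seen. Procr, which encodes a surface receptor of stem cells, stood at 5.07, 6.39 and 13.5 CPM in DEK replicates 1, 2 and 3, against 3.33, 3.50 and 1.73 CPM in vehicle replicates 1, 2 and 3 (log2 fold change 1.54 ± 0.46, SE; unadjusted p = 0.0132, adjusted p = 1, edgeR). Ly6a, which encodes the stem cell antigen Sca-1, stood at 50.3, 51.2 and 170.2 CPM with DEK and 46.8, 34.3 and 41.8 CPM with vehicle (1.14 ± 0.51, SE; adjusted p = 1, edgeR). DEK replicate 3 was the highest library for both. Blocking by replicate number left Hlf just short of a call, with an adjusted p of 0.05001 in edgeR at a log2 fold change of -0.58. Other cell types gave few calls, all of them only with that block. In that fit 0.869% of all genes were called higher and 0.413% lower. Lcn2, a neutrophil granule gene, stood at 396, 404 and 2889 CPM in DEK replicates 1, 2 and 3, against 236, 218 and 2289 CPM in vehicle replicates 1, 2 and 3. As 1 of 11 neutrophil markers it rose by 0.66 on the log2 scale with the block (adjusted p = 0.02056, edgeR), against 0.43 ± 1.22 (SE, adjusted p = 1) without it. C1qb, which encodes a complement subunit made by macrophages, stood at 1.76, 2.01 and 8.17 CPM in the DEK libraries and 8.56, 5.70 and 17.1 CPM in the vehicle libraries. C1qb and C1qc, 2 of 8 macrophage markers, fell by 1.58 and 1.15 on the log2 scale with the block (adjusted p = 0.01068 and 0.03391, edgeR). Without the block their log2 fold changes were -1.39 ± 0.72 and -1.03 ± 0.56 (SE, adjusted p = 1 each). None of these genes was called when both libraries numbered 2 were left out of the blocked fit, which then called 0 genes. None of the 6 erythroid, 9 B cell, 8 T cell, 8 megakaryocyte or 7 endothelial and stromal markers tested was called. Among the smallest p in the blocked fit in these lists were those of Klf1 and Epor, Ms4a1, Cd3d and Lat, Ppbp and Pf4, and Col1a1 and Cdh5, with adjusted p from 0.07346 to 0.7314 (edgeR).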

How the data were processed

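Per the file headers, the deposited read counts were made by the authors with featureCounts 1.6.1 on mm10, by gene from its exons, from 1 alignment per library, with no strand, overlap or pairing option. Trim Galore, STAR, HTSeq and edgeR are named in the submitters' processing notes, which do not name the counter of the header. The libraries came from a stranded mRNA kit, per the labels' protocols, so sense and antisense reads were counted together. Exon lengths are those deposited in the same table.

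Tests were run in edgeR 4.0.16 (R 4.3.3), with DESeq2 1.42.0 and limma-voom (limma 3.58.1) as alternatives. The filter filterByExpr kept 13803 of the 18049 genes that had any read. The comparison was edgeR's quasi-likelihood test (TMM, robust, two-sided, no block). A call is a Benjamini-Hochberg adjusted p under 0.05, adjusted over the whole table. It was tested on simulated data. Each SE was derived from the gene's F value, and log2 CPM has a prior count of 2.

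Another fit took the replicate number as a block. Deviations from group means correlated by 0.55, 0.56 and 0.80 across genes between equal numbers 1, 2 and 3, so the numbers were taken as pairs by the rule that each exceed 0.1, although unequal numbers 1 and 2 reached 0.52 and 0.41. No 2 libraries of a group agreed within sampling noise.

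The members, the gene lists and the naming rule were chosen with earlier results of these data known. The rule named all members, up to 4 genes per list called within pairs, or otherwise the 2 with the smallest p, and the 6 genes nearest to the members' mean profile among those of at least 5 CPM. Other genes with values (Pbx2, Lmo2, Kmt2a) were chosen after their values were seen. Some genes that the rule named are not reported here.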

Additional observations from a re-analysis of the deposited data

How the results depend on the processing

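None of the 19 settings tried ended or made a call among the 7 members tested, with 0 called each time. The number of genes called over the whole table was 0 in the main fit and depended on the setting: 177 with the replicate block, 58 with DESeq2, 347 with DESeq2 and the block, and 349 with the block and no filter on low counts, a setting added after seeing the data. Leaving out single libraries without the block gave 0 to 1, leaving out both libraries of a number with the block gave 0 to 641 (181 without those numbered 1), and leaving out both libraries numbered 3 without the block gave 168. Among the genes of the fixed lists, the block changed no other call than those of Lcn2, C1qb and C1qc given above; for Meis1 it gave -0.24 ± 0.12 (SE, adjusted p = 0.495, edgeR). The median log2 fold change of the members was -0.017 and ranged from -0.14 to 0.090 when libraries were left out, with -0.14 without vehicle replicate 2, -0.11 without vehicle replicate 3, 0.090 without the libraries numbered 1 and 0.0035 without DEK replicate 2. Of 133 single values under alternatives, 26 changed sign, none of them past the threshold and none of them for Meis1, which stayed between -0.40 and -0.085 when libraries were left out. Hoxa7 came to -0.0016 with DESeq2 and -0.024 with upper quartile scaling. When libraries were left out, log2 fold changes ranged from -0.20 to 0.22 for Hoxa5, -0.19 to 0.27 for Hoxa7, -0.11 to 0.15 for Hoxa9, -0.29 to 0.34 for Hoxa10, -0.51 to 0.22 for Hoxb3 and -0.10 to 0.38 for Hoxb4. Without both libraries numbered 3, Hoxa5 stood at 0.034 (0.026 with the block), Hoxa7 at -0.099 (-0.080) and Hoxa9 at -0.037 (-0.036). With the block and without those numbered 2, Hoxa5 stood at 0.069 and Hoxa7 at -0.0030, and without those numbered 1 Hoxa10 stood at 0.29. The cause of these changes of sign was not tested. With no filter, Hoxb5 had a log2 fold change of -0.71 ± 0.70, or -0.63 ± 0.86 with the block (adjusted p = 1 and 0.896, edgeR). Counts were lowest for Hoxa5, Hoxa10 and Hoxb5, with 3 to 62 in a library.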

Other observations

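Profiles like those of the members were sought among 10224 other genes of at least 5 CPM. Among the 6 genes nearest to the mean centred log2 CPM profile of the members were Zfp318, Ranbp2, Arnt, 8430419L09Rik and 4933434E20Rik, at root mean square differences of 0.0316 to 0.0358 over 6 libraries. That mean profile was nearly flat, between -0.071 and 0.10, since members of opposite direction cancel in it, and Hoxb3 alone lay 0.410 from it. Members taken 1 at a time, a choice made after the data were seen, gave distinct neighbours. The nearest to Hoxa9 were Ero1lb (0.0348), Pcca (0.0371) and Wdr73 (0.0374), each lower in replicate 3 of both groups. The nearest to Hoxb4 were Zmynd8 (0.0211), Vcl, the gene of the adhesion protein vinculin (0.0224), and Sltm (0.0351), each higher in replicate 3 of both groups. Those nearest to Meis1 were Jade1 (0.0384), Ube2e3 and Syncrip (0.0556). None of the genes nearest to a single member was called (adjusted p = 1, edgeR with no block), but that fit called 0% of all genes.

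Kmt2a itself was higher in replicate 3 of both groups, by 0.90 with DEK and 0.92 with vehicle on the log2 scale. That was the direction of Hoxa5, Hoxb3 and Hoxb4 and the opposite of Hoxa7, Hoxa9, Hoxa10 and Meis1. The 14 genes of its list had medians of 0.067 with DEK and 0.047 with vehicle, with 6 higher and 4 lower in both groups. A link between Kmt2a and the members was not tested.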
